A study of Drosophila melanogaster with 3 samples.

Results

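The weak promoter regions described here come from Chiffon chromatin immunoprecipitation, lie at gene starts and did not reach the list of reproducible peaks. The list they come from is labelled as holding peaks and background, so a weak region need not be enriched. The weak promoter regions were chosen by measured values. A region was taken from the relaxed list made from all 3 replicates together if it overlapped no region of the list thresholded by irreproducible discovery rate (IDR), a measure of how well ranks agree between replicates, and if its summit lay within 500 bp of a protein-coding transcript start. This left 4687 regions, 22.5% of the 20865 relaxed regions that overlapped no IDR peak and 18.7% of the 25066 relaxed regions in all. A further 517 relaxed regions overlapped an IDR peak without being one and were left out. The weak promoter regions are set beside the 1641 IDR peaks whose summits met the same distance rule, and beside the 16178 weak regions away from promoters.

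The study mapped the genomic sites of Chiffon in whole Drosophila melanogaster embryos of mixed sex, aged 0 to 24 hours. Every embryo came from 1 transgenic strain that stably expresses the RA isoform of chif with GFP at its C terminus, and chromatin was precipitated with anti-GFP. Chromatin was sonicated to 200 to 800 bp, and the 3 biological replicates form 1 group. The labels name possible controls, which were not analysed here, so each comparison is between classes of regions and its error is the spread over the 3 replicates. Whole embryos mix all tissues and stages. A weak region can come from few cells, from low occupancy in many or from background, which cannot be told apart. The signal is the authors' score without a stated scale, and the lists hold no counts of reads, so depth is unknown.

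Chiffon is related to Dbf4, the protein that activates the kinase Cdc7 at origins of DNA replication, and chif mutants fail to amplify the chorion genes in ovarian follicle cells. A second product of chif belongs to CHAT, a histone acetyltransferase complex built around Gcn5. Many promoters of broadly active fly genes carry the DNA replication-related element (DRE), bound by the factor Dref, or Motif 1, while many regulated promoters carry a TATA box or an initiator.

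The sequences at representative summits show the range of promoters in the class. The first set holds weak regions with the highest signal that recurred in every replicate, and Surf6, which overlapped a region among the highest of every replicate. They are given 5′ to 3′ on the strand of the gene, read from the RefSeq Release 6 genome (dm6), in 61 bp around the summit or 29 bp where more would print untranslated sequence. Capitals mark a match to any of the 9 motifs searched on both strands, none of which contains another. The DRE was searched as TATCGATA. The TATA box was searched for as TATAAA. The core of the initiator was written as TCAGT. Motif 1, known from housekeeping promoters, has the core GGTCACACT. The E-box of Motif 5 was read as CAGCTG. The element bound by GAGA factor was read as GAGAG. The site of Zelda, an early activator, was written as CAGGTAG. The core of Motif 6 is given by GTATTTTT. For the core of Motif 8 the letters were GGCANCG.
Oga: agtatatcgatgtcttgagcTATCGATAg
Reph: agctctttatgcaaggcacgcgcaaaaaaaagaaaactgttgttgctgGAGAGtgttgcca
Calx: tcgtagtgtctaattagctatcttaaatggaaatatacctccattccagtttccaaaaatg
Cyfip: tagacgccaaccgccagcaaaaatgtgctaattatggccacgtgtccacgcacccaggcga
CG31495: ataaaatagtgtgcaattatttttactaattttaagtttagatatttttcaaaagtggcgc
kon: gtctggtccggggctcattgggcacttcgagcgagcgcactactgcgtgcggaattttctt
Surf6: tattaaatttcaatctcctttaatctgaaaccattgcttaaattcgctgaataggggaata
These windows lie at chr3R:21219079-21219107 (Oga, plus strand), chr2L:3803159-3803219 (Reph, plus), chr3R:20989736-20989796 (Calx, plus), chr3R:15333213-15333273 (Cyfip, plus), chr3R:13840188-13840248 (CG31495, minus), chr2L:18503986-18504046 (kon, minus) and chr3R:19904944-19905004 (Surf6, minus). Their GC content runs from 23.0% at CG31495 to 59.0% at kon.

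The second set holds weak promoter regions of high signal with a DRE beside the summit, chosen after their values were seen to show the motif in place.
vnd: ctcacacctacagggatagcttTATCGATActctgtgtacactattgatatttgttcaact
lds: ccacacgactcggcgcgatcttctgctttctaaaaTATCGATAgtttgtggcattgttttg
beta'COP: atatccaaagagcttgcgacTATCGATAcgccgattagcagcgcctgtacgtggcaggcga
MED17: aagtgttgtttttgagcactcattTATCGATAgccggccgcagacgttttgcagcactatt
These lie at chrX:582018-582078 (vnd, plus), chr3R:7920393-7920453 (lds, plus), chr2L:13378827-13378887 (beta'COP, plus) and chr3R:18189021-18189081 (MED17, plus), with summits 73, 8, 45 and 21 bp upstream of the start.

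The third set shows weak promoter regions of high signal whose summit lies in a coding exon, followed by the 2 strongest promoter IDR peaks, all likewise chosen after their values were seen.
CG8010: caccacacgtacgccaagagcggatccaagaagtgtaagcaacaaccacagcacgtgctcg
Veneno: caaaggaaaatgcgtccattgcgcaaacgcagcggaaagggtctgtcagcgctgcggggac
Adss: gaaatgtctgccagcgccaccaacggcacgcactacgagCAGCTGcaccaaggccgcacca
CG14100: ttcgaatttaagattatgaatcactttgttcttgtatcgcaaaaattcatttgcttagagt
Ugalt: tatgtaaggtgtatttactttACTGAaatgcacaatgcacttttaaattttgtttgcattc
The coding windows, at chrX:19268650-19268710 (CG8010, minus), chr3R:8362310-8362370 (Veneno, minus) and chr3R:20830389-20830449 (Adss, minus), are 55.7%, 59.0% and 63.9% GC. The windows of the IDR peaks, at chr3L:19590597-19590657 (CG14100, minus) and chrX:2703867-2703927 (Ugalt, minus), are each 27.9% GC.

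The weak promoter regions covered a narrow span of signal. Their pooled signal ran from 34.2 to 92.35 with a median of 47.3, against 92.3523 to 2044 with a median of 152 in promoter IDR peaks. Both classes had a median width of 396 bp. The median −log10 q, the authors' significance value, was 0.247 in weak promoter regions and 3.60 in promoter IDR peaks. A −log10 q of at least 1 was reached by 817 weak promoter regions (17.4%), and at least 2 by 141 (3.01%). Because the choice rested on these ranks, the differences carry no test. Weak regions away from promoters spanned the same range with a median of 43.1.

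At the boundary, the classes adjoined in signal. Just inside lay Oga at 92.35, which encodes the enzyme that removes O-GlcNAc from proteins, Reph at 92.32 and Calx at 92.26, a sodium/calcium exchanger. The promoter IDR peaks just outside were at Rpn8 with 92.3523, a proteasome lid subunit, CG12118 with 92.41 and csw with 92.45, a tyrosine phosphatase of receptor kinase signalling. Most weak promoter regions were far from any IDR peak, with a median distance between summits of 9023 bp (quartiles 3612 and 19910 bp). Only 316 (6.74%) had an IDR summit within 1000 bp. Overlapping weak regions were merged into 4307 loci, 358 of which held 738 of the regions.

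The strongest weak promoter regions that recurred in every replicate had uneven ranks in the replicate lists, each of which holds 30000 regions ordered by signal. Oga ranked 3477, 3464 and 6800 in replicates 1, 2 and 3, and Calx ranked 1697, 8601 and 3166. CG10343 ranked 1357, 6856 and 10489. The region 389 bp downstream of a CG31729 start ranked 27695 in replicate 1, against 2453 and 3793 in replicates 2 and 3. For prod, which encodes a satellite DNA-binding protein, the ranks were 25616, 3302 and 5184, and for kon, a transmembrane protein of muscle attachment, 7373, 18098 and 2674. Sym (Symplekin, mRNA 3′ end formation) was the most even of the 12 named by this rule, at 4538, 4617 and 6025. The others were chk, a monocarboxylate transporter, Cyfip, a subunit of the actin-regulating WAVE complex, Ppcs, an enzyme of coenzyme A synthesis, CG31495 and Reph.

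Few weak promoter regions overlapped a high-ranked region in every replicate. Each replicate list was limited to as many of its highest regions as the IDR list holds, and 3 weak promoter regions (0.0640%) then remained in all 3. So did 1038 promoter IDR peaks (63.3%) and 1 weak region away from promoters. Weak promoter regions were chosen for missing the IDR list made from these replicates, so a low count follows from the choice. The regions at Surf6, a nucleolar protein, and RhoGAP92B overlapped the same replicate regions, ranked 2645, 3655 and 2991, although their pooled signals were 90.5 and 49.4. The replicate summits lay 30, 0 and 186 bp from that of Surf6, and 169, 199 and 13 bp from that of RhoGAP92B. The third, at Hsc70-4, a constitutive Hsp70 chaperone, had a pooled signal of 38.6. It overlapped replicate regions ranked 840, 2850 and 3662, with summits 223, 133 and 179 bp from its own. A second weak region 150 bp upstream of Hsc70-4 had a pooled signal of 85.6 and shared the first 2 of these replicate regions. Their summits lay 1 and 89 bp from that of the second region.

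Summits of weak promoter regions were spread over both sides of the start, while those of promoter IDR peaks lay mostly upstream. In the pooled lists, 51.4% of weak promoter regions and 84.5% of promoter IDR peaks had the summit upstream. The median position was −8 bp (quartiles −129 and 175) in weak promoter regions and −97 bp (quartiles −193 and −36) in promoter IDR peaks, where negative values are upstream. More than 200 bp downstream lay 23.3% of weak promoter regions and 4.08% of promoter IDR peaks.

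The same measures were taken from the summits that each replicate list gave to these regions, whose side of the start the rule did not use. Replicate regions counted only with a summit within 500 bp of a start. For weak promoter regions they also had to overlap no IDR peak. The replicates were read at the same set of regions and also made the pooled list, so their values are not independent of the choice. The upstream share was 53.5%, 54.2% and 52.2% for weak promoter regions in replicates 1, 2 and 3, against 85.3%, 84.0% and 82.5% for promoter IDR peaks. The difference of −30.7 ± 1.08 percentage points (SD, n = 3) was far larger than the spread between replicates (exact two-sided sign-flip test over replicates, p = 0.25). With 3 replicates 0.25 is the smallest p this test can give, so no comparison here can reach 0.05. The median position was −16, −17 and −9 bp in weak promoter regions, against −95, −100 and −102 bp in promoter IDR peaks, a difference of 85 ± 7.21 bp (SD, n = 3, exact sign-flip p = 0.25). Among weak promoter regions with a −log10 q of at least 1 the differences were −16.0 percentage points and 49 bp.

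**Figure D1:**
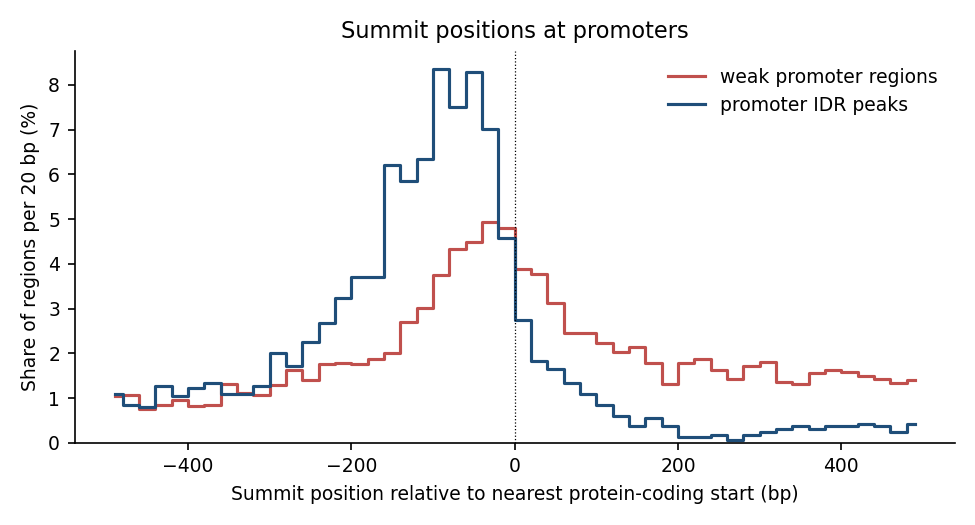
Share of regions (%, y axis) per 20 bp of summit position relative to the nearest protein-coding start (x axis, bp, negative upstream), for the weak promoter regions (red) and the promoter IDR peaks (blue) of the pooled lists. The weak promoter regions centre near the start with a long downstream shoulder, 23.3% of them beyond 200 bp, and the IDR peaks centre upstream with a median of −97 bp.

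The annotation at the summit differed too. Coding exons held 884 weak promoter regions (18.9%) and 11 promoter IDR peaks (0.670%). Summits in 5′ UTRs made up 27.0% of weak promoter regions and 17.1% of promoter IDR peaks, and introns held 20.9% of weak promoter regions and 24.7% of promoter IDR peaks. Outside protein-coding genes lay 31.7% of weak promoter regions and 56.3% of promoter IDR peaks. The weak regions in coding exons had the lowest median signal of these places, 42.6, against 52.0 for those outside genes. Examples are CG8010, Veneno, a Tudor domain protein, and Adss, the adenylosuccinate synthetase of purine synthesis, whose sequences are printed above.

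At their summits, weak promoter regions were richer in G and C than promoter IDR peaks. Within 100 bp of replicate summits the GC content was 46.0%, 43.4% and 43.5% in weak promoter regions for replicates 1, 2 and 3, and 37.5%, 37.1% and 37.2% in promoter IDR peaks. The difference was 6.98 ± 1.29 percentage points (SD, n = 3, exact sign-flip p = 0.25), and 4.24 among weak promoter regions with a −log10 q of at least 1. The pooled summits gave 44.5% for weak promoter regions and 37.2% for promoter IDR peaks, beside 46.0% in weak regions away from promoters. All annotated starts were at 42.3%. The starts of genes with a weak promoter region alone were at 43.1% and those of genes with an IDR summit at 42.9%. These averages take in every annotated start of those genes, also starts with no region nearby. GC content was higher in weak promoter regions in each 100 bp bin of position. From 100 bp upstream to the start it was 41.5% in weak promoter regions and 38.9% in promoter IDR peaks, and from 200 to 100 bp upstream it was 39.7% in weak promoter regions and 35.2% in promoter IDR peaks. Downstream bins of IDR peaks are thinly filled, with 11 to 45 peaks each beyond 100 bp. Weak regions in coding exons reached 54.7% GC.

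The DRE was found beside a minority of weak promoter regions, and almost never away from promoters. Within 100 bp of the summit 246 weak promoter regions (5.25%) and 7.13% of promoter IDR peaks held it, against 0.291% of weak regions away from promoters and 6.45% of all starts. In replicates 1, 2 and 3 the share was 4.74%, 6.03% and 6.20% for weak promoter regions, against 7.54%, 7.28% and 7.49% for promoter IDR peaks. The difference of −1.78 ± 0.883 percentage points (SD, n = 3, exact sign-flip p = 0.25) turned to 1.78 among weak promoter regions with a −log10 q of at least 1, and it ran from −3.35 to −0.710 in the other settings tried. From 100 bp upstream to the start 13.6% of weak promoter regions and 14.8% of promoter IDR peaks held a DRE, and in the 100 bp after the start 7.76% of weak promoter regions and 6.34% of promoter IDR peaks held one.

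Other motifs differed in direction. TATAAA was found in 20.7% of weak promoter regions and 30.7% of promoter IDR peaks, beside 26.9% of all starts, and within weak promoter regions in 27.5% of those upstream and 13.6% of those downstream. The Motif 1 core had the same share in both classes, 3.29%, against 0.130% of weak regions away from promoters. The Motif 8 core was in 12.01% of weak promoter regions and 7.68% of promoter IDR peaks, beside 11.1% of all starts. The Zelda motif was in 1.47% of weak promoter regions, 0.488% of promoter IDR peaks and 1.08% of all starts. GAGA was in 24.8% of weak promoter regions, 21.1% of promoter IDR peaks and 24.99% of all starts. The Motif 5 E-box was in 12.8% of weak promoter regions, 12.6% of promoter IDR peaks and 13.4% of all starts. The initiator core was in 32.6% of weak promoter regions, 34.3% of promoter IDR peaks and 43.4% of all starts, and the Motif 6 core was in 3.41% of weak promoter regions, 5.55% of promoter IDR peaks and 4.69% of all starts. Over every annotated start of the genes, also starts with no region nearby, TATAAA had the reverse order. Windows there held it in 23.5% for genes with a weak promoter region alone and 20.3% for genes with an IDR summit. The order was also reversed for the Motif 8 core (11.95% and 13.43%), GAGA (26.2% and 28.6%), the initiator core and the Motif 5 E-box. It was kept for the Zelda motif and the Motif 6 core. These shares are descriptions of letters in a window and were not tested.

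Position, base composition and DRE share all varied with signal inside the class. Divided into 5 equal parts from weakest to strongest signal, the share of upstream summits was 42.6%, 44.1%, 48.4%, 54.2% and 67.8%. GC content was 46.2%, 45.7%, 45.2%, 43.7% and 41.7%, and the DRE share 2.88%, 4.06%, 4.90%, 6.08% and 8.32%. From the replicate summits, the strongest part averaged 66.7% ± 3.39 upstream, 41.7% ± 0.278 GC and 8.85% ± 0.377 with a DRE (SD, n = 3). The weakest part averaged 46.3% ± 2.17 upstream, 45.6% ± 2.50 GC and 2.47% ± 1.55 with a DRE. The strongest part thus lay nearer to the IDR peaks in position and GC content, and above them in DRE share in all 3 replicates.

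**Figure D2:**
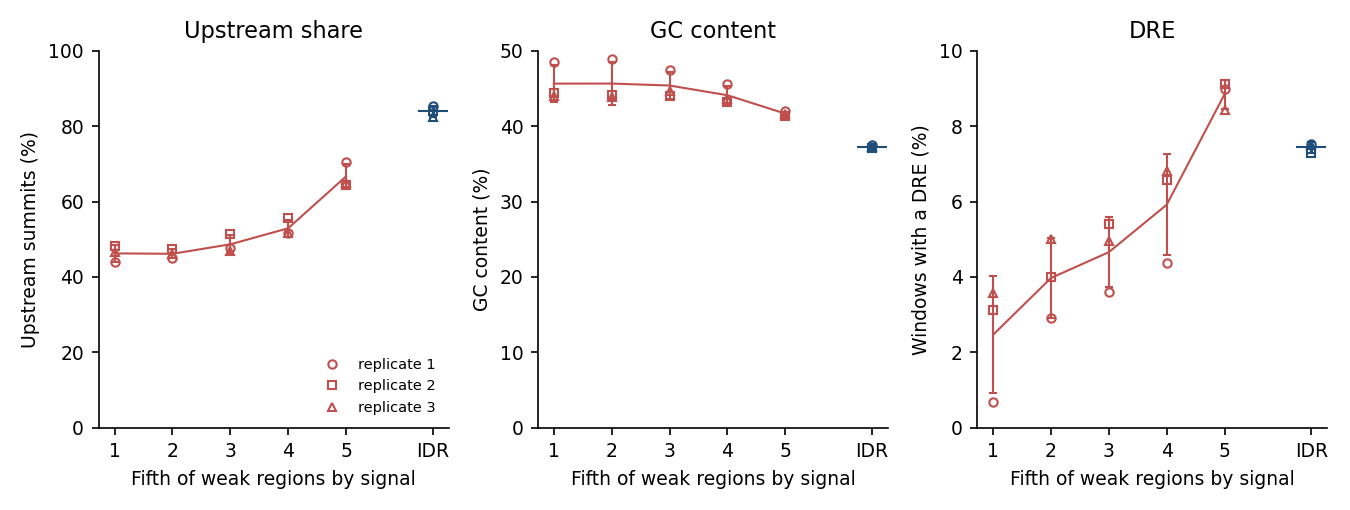
Share of summits upstream (left, %), GC content (middle, %) and share of windows within 100 bp of the summit that hold a DRE (right, %) in 5 equal parts of the weak promoter regions from weakest (1) to strongest (5) pooled signal, red, and in promoter IDR peaks, blue. Open symbols are the 3 replicates, and lines and bars give the replicate mean ± SD; upstream and DRE shares are higher at high signal and GC content lower.

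Recurrence, the share of regions overlapped by a region of a replicate list, was uneven between replicates. It was 48.6%, 81.0% and 77.7% for weak promoter regions in replicates 1, 2 and 3, 96.0%, 99.9% and 99.6% for promoter IDR peaks, and 59.4%, 64.9% and 62.5% for weak regions away from promoters. The pooled list was made from the same replicates, so recurrence and membership are not independent. Weak promoter regions exceeded weak regions away from promoters by 16.1 and 15.3 percentage points in replicates 2 and 3, while the difference was −10.8 points in replicate 1. The mean difference of 6.86 ± 15.3 (SD, n = 3, exact sign-flip p = 0.5) is smaller than the spread between replicates. It was 15.7 without replicate 1, 2.24 without replicate 2 and 2.66 without replicate 3, and −1.47 among regions with a −log10 q of at least 1.

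Replicate 1 stood apart for weak promoter regions, and in the other classes too. Of the weak promoter regions, 1369 (29.2%) were in all 3 lists, 2357 in 2 lists, 895 in 1 list and 66 in none. Replicate 1 alone was missing for 1703 of them, replicate 2 alone for 283 and replicate 3 alone for 371. The same counts were 65, 2 and 6 for promoter IDR peaks, and 3487, 1774 and 2074 for weak regions away from promoters. The 1703 had a GC content of 42.8% and 220 of them (12.9%) lay in coding exons. The 255 found in replicate 1 alone had a GC content of 51.4%, a median position of 122 bp and 117 (45.9%) in coding exons. Those found in replicate 2 alone (352) or replicate 3 alone (288) had GC contents of 44.6% and 44.9%, and 20.2% and 19.8% in coding exons. GC content thus moved with the replicate in which a region was found, and its part in the differences above was not tested beyond the values without replicate 1, which were −30.06 percentage points for the upstream share, 88 bp for position and 6.24 points for GC content.

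**Figure D3:**
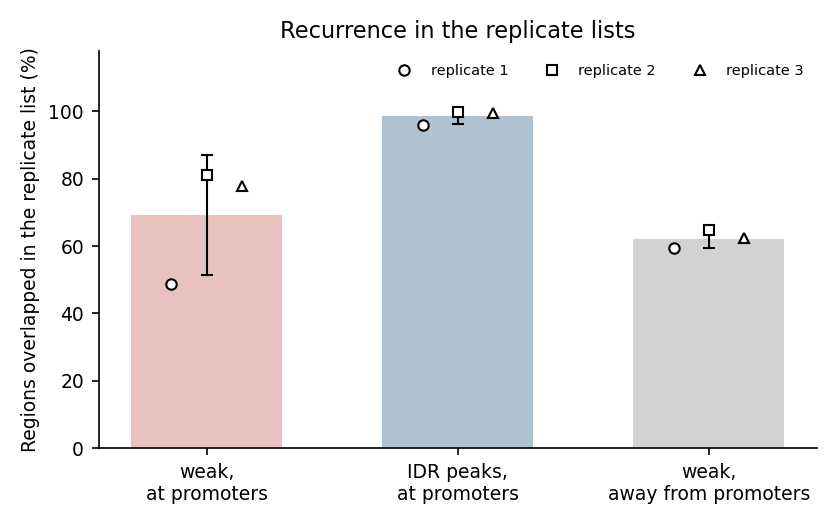
Share of regions overlapped by at least 1 bp in each replicate list (%, y axis) for weak promoter regions, promoter IDR peaks and weak regions away from promoters. Symbols are the 3 replicates and bars the mean ± SD; for weak promoter regions replicate 1, at 48.6%, lies well below replicates 2 and 3.

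Recurrence also varied along the promoter, in opposite ways between replicates. In replicates 2 and 3 it was highest from 100 bp upstream to the start, at 87.9% and 84.6%, and lowest 400 to 500 bp downstream, at 67.9% and 64.4%. In replicate 1 it was 47.1% just upstream of the start, lowest at 42.2% from 100 to 200 bp downstream and highest at 57.4% from 400 to 500 bp downstream. By place, weak promoter regions in 5′ UTRs recurred at 41.2%, 83.9% and 82.5% in replicates 1, 2 and 3, and those in coding exons at 58.3%, 66.6% and 62.9%. Recurrence in all 3 lists was 7.36% in the weakest of the 5 signal parts and 64.6% in the strongest. The pooled signal was made from the same replicates, so these shares are not independent of the division by signal.

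**Figure D4:**
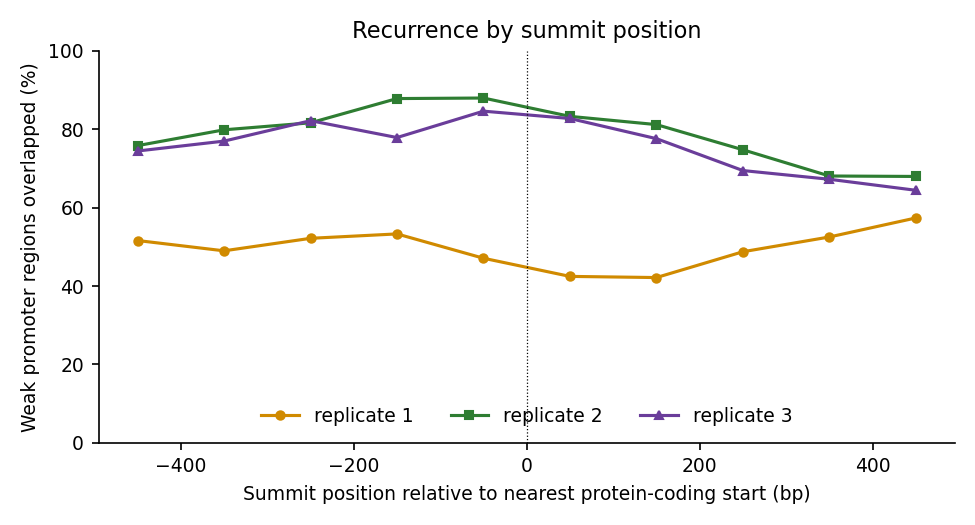
Share of weak promoter regions overlapped in each replicate list (%, y axis) by 100 bp bin of summit position (x axis, bp, negative upstream). Replicates 2 and 3 peak near the start, where replicate 1 is at 47.1%, and the 3 lines come closest 400 to 500 bp downstream.

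By chromosome, the small and largely heterochromatic chromosome 4 had few IDR summits. Genes with a weak promoter region and no IDR summit made up 26.8% of genes on 2L, 31.0% on 2R, 30.3% on 3L, 30.02% on 3R, 32.1% on X and 24 of 80 on chromosome 4. Genes with an IDR summit made up 4 of 80 on chromosome 4, against 13.5% to 16.2% on the other arms. The 27 weak promoter regions of chromosome 4 had a GC content of 36.1%, and 2, 24 and 23 of them were found in replicates 1, 2 and 3. The whole lists had 41, 280 and 253 regions on chromosome 4 in replicates 1, 2 and 3.

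At the level of genes, the 4687 weak promoter regions reached more genes than the 1641 promoter IDR peaks, a smaller set. Of 13945 protein-coding genes, 4181 (30%) had a weak promoter region within 500 bp of a start and no IDR summit there, 2094 (15%) had an IDR summit, and 7670 (55.0%) had neither. Both kinds were found at 372 genes, 8.17% of those with a weak promoter region and 17.8% of those with an IDR summit. Most genes had 1 weak region, while 738 had 2 and 117 had 3. Of the regions, 3767 (80.4%) lay within 500 bp of the starts of 1 gene and 876 (18.7%) of 2 genes, so genes are not independent of each other. At 696 of the 4181 genes (16.6%) the strongest weak region had its summit nearer to the start of another gene, and such a region cannot be assigned to either gene. A divergent neighbour, with a start on the other strand within 500 bp, was found for 27.8% of all protein-coding genes. The share was 35.5% for genes with a weak promoter region alone, 54.3% for genes with an IDR summit and 16.4% for genes with neither. A summit between divergent starts can count for both genes, so these shares are not independent of the distance rule. Windows at the starts of genes with a weak promoter region alone held a DRE in 8.49%, against 7.52% for genes with an IDR summit and 4.56% for genes with neither.

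Among genes of growth and energy metabolism, lists differed in which class predominated. The lists were compiled from textbook knowledge with earlier results of these data known, and their shares are read beside the 30% and 15% of all genes, with no test. Of 92 cytosolic ribosomal protein genes, 17 (18.5%) had a weak promoter region alone and 64 (69.6%) an IDR summit. The weak ones included RpL6, with signal 87.5 and ranks of 3486 and 2805 in replicates 2 and 3 but no region in replicate 1, and RpS6, with signal 77.4 and ranks of 2450, 6701 and 5588. Of 73 mitochondrial ribosomal protein genes, 33 (45.2%) had a weak promoter region alone and 15 (20.5%) an IDR summit. These 33 had a median position of −138 bp, and 17, 31 and 31 were found in replicates 1, 2 and 3. At 14 of the 33 (42.4%) the summit was nearer to another gene's start. This holds for all 3 with the highest signal: mRpL53 with signal 89.6 (summit at −91 bp, and at −79 bp from AGO1), mRpL16 with 88.5 (−191 bp, with trr nearer) and mRpL18 with 87.3 (−105 bp, and 85 bp from Taz).

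Oxidative phosphorylation genes, which encode the respiratory chain and ATP synthase, had 40 of 86 (46.5%) with a weak promoter region alone and 11 (12.8%) with an IDR summit. UQCR-14 and RFeSP, both of complex III, had signals of 91.6 and 91.5, the first with no region in replicate 1. ATPsynCF6 of the ATP synthase had 88.7, with its summit nearer to the start of Sec13. Of the 40, 15 were found in replicate 1, against 35 and 32 in replicates 2 and 3. Proteasome subunits stood near the background, with 16 of 48 (33.3%) weak alone and 7 with an IDR summit. Translation factors had 16 of 54 in each class and aminoacyl-tRNA synthetases 6 of 17 in each. Glycolytic enzymes had 3 of 12 weak alone (Tpi, Ald1 and PyK, with signals 82.9, 60.6 and 57.9) and 6 with an IDR summit. The region named at Ald1 was not found in replicate 1, and that at PyK was found in replicate 3 alone. Heat shock proteins had 11 of 26 (42.3%) weak alone and 4 with an IDR summit, and cytoskeletal genes 10 of 24 (41.7%) weak alone and 6 with an IDR summit.

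Cell cycle regulators had 24 of 44 genes (54.5%) with a weak promoter region alone and 13 (29.5%) with an IDR summit. All 24 were found in replicates 2 and 3, and 14 in replicate 1. The strongest was 233 bp downstream of a CycB3 start, a mitotic cyclin, with signal 88.5 and ranks of 20101, 4105 and 5193. At stg, the Cdc25 phosphatase that triggers mitosis, the summit lay at −406 bp with signal 84.1 and ranks of 4593, 7989 and 5187, and the start of CG45544 was nearer, at −279 bp. Another start was nearer at 7 of the 24 genes. At fzr, an activator of the anaphase-promoting complex, it had signal 82.7.

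DNA replication genes, the process in which Dbf4 proteins act, had 16 of 42 (38.1%) weak alone and 11 (26.2%) with an IDR summit. Psf3, a subunit of the GINS helicase complex, had signal 80.7 and ranks of 15884, 3153 and 8937. Mcm2, of the replicative helicase, and RPA1, the large single-strand binding subunit, share 1 weak region of signal 78.1, found in replicates 1 and 2 at ranks of 4359 and 2285 and not in replicate 3. Chromatin proteins had 16 of 36 (44.4%) weak alone and 15 (41.7%) with an IDR summit. Among them were Su(var)3-9, a histone H3 methyltransferase of heterochromatin, with signal 85.9, Su(var)3-7 with 82.4 and Pc, the Polycomb protein, with 79.6. The region at Pc was not found in replicate 1. The region at Su(var)3-9 has its summit at −204 bp from its start and from that of eIF2gamma, and nearer, at 110 bp, to the start of Set. The region at Su(var)3-7 has its summit at −247 bp, and at −56 bp from the start of Ravus. None of the 111 replication-dependent histone genes, which lie in near-identical repeats and are uncertain for that reason, had a region of either class.

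Developmental regulators had weak promoter regions more often than IDR summits, as did all genes. Signalling components had 22 of 42 (52.4%) weak alone and 8 (19.05%) with an IDR summit. At puc, a phosphatase of JNK signalling, the signal was 81.9, with no region in replicate 1, and at N, the Notch receptor, it was 81.0. Hox and segmentation genes had 14 of 37 (37.8%) weak alone and 3 (8.11%) with an IDR summit, with lower signals of 68.5 at oc, 64.8 at lab and 60.8 at croc. A list of early zygotic genes, not all of which act in cellularization, had 4 of 14 weak alone and 1 with an IDR summit. Its strongest was Bro with 84.8, which encodes a partner of Runt-domain factors, and the start of CG17249 was nearer to that summit.

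Tissue gene lists gave small counts. Neuronal genes had 9 of 26 weak alone and 2 with an IDR summit, led by pros, a factor of neural precursor differentiation, with signal 87.6. Muscle genes had 7 of 20 weak alone, led by Mef2 with 82.0 and no region in replicate 1, and 5 with an IDR summit. Germline genes had 9 of 19 weak alone, led by vas with 75.7, at the same distance from a start of solo, and 4 with an IDR summit. Tracheal genes had 6 of 11 weak alone, led by trh with 60.6, and 1 with an IDR summit. Hemocyte genes had 4 of 14 weak alone, led by ush with 60.0 and no region in replicate 1, and 1 with an IDR summit. Cuticle protein genes had 22 of 122 (18.03%) weak alone and 1 with an IDR summit, and of these 22 replicates 1, 2 and 3 found 19, 8 and 9. Their strongest were Cpr72Eb, with signal 79.0 and no region in replicate 1, and Lcp9, with 64.9 and nearer to the start of CG3594. Chemosensory receptors had 14 of 179 (7.82%) weak alone and 1 with an IDR summit. The list of chorion and vitelline membrane proteins, which act in the ovary, includes genes amplified there. Of its 17 genes, 5 (29.4%) were weak alone, beside the 30% of all genes, and 0 had an IDR summit. The strongest were Vm26Aa with 71.0, in a coding exon, and Cp38 with 62.2. Fcp1, with 61.1, was also on the list but encodes a phosphatase of RNA polymerase II. The counts of this list are thus not of chorion and vitelline membrane genes alone.

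**Figure D5:**
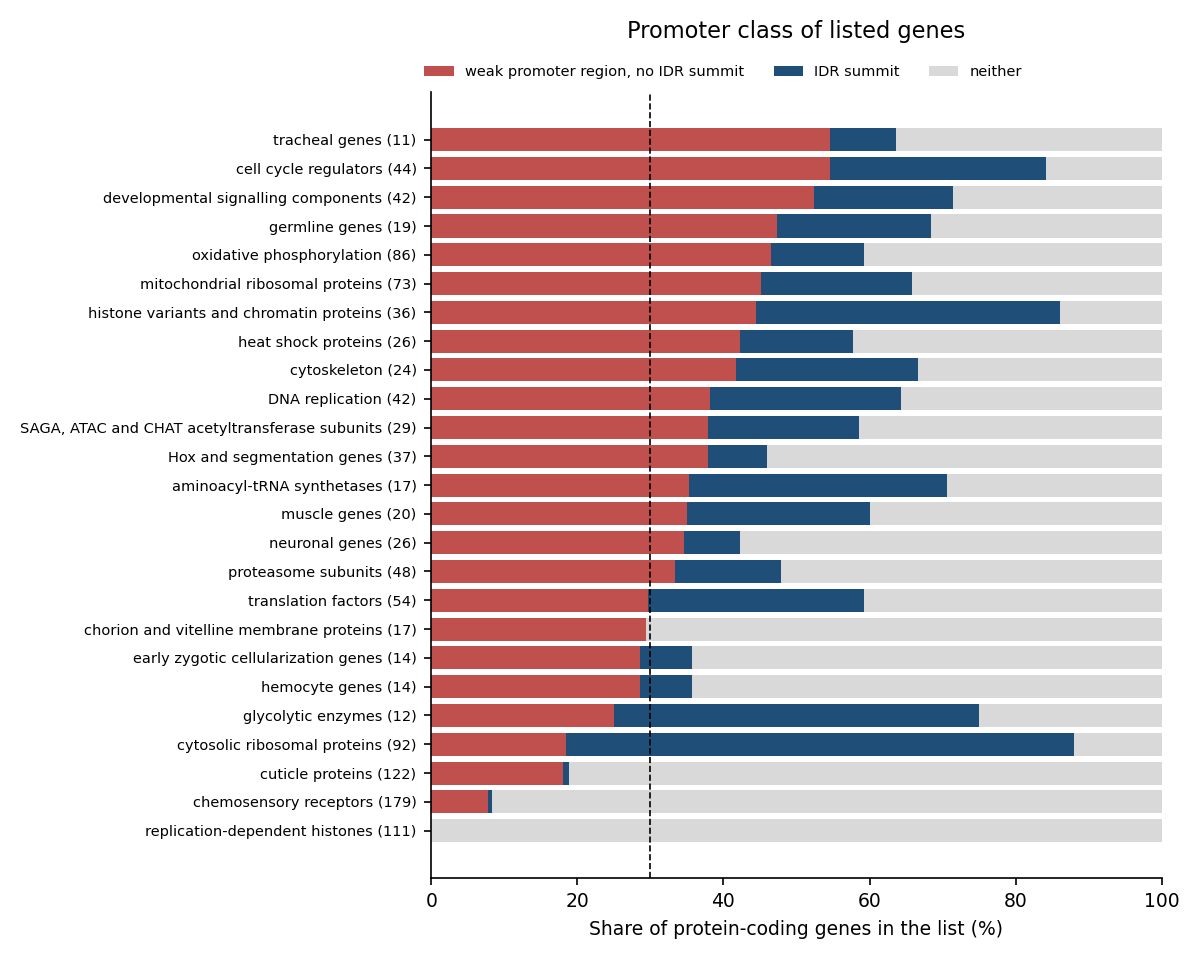
Share of the protein-coding genes of each list (%, x axis; number of genes in brackets) with a weak promoter region and no IDR summit (red), with an IDR summit (blue) and with neither (grey). The dashed line marks the 30% of all genes with a weak promoter region alone. Cell cycle regulators reach 54.5%. Cytosolic ribosomal protein genes are at 18.5%, with 69.6% in the blue class, whose genes the red share leaves out. Chemosensory receptors are at 7.82%, with 91.6% in neither class.

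The genes of Chiffon and its partners were largely outside the weak class. At chif itself, a weak region at chr2L:16352503-16352898, 73 bp upstream of a start, had signal 62.5 and ranks of 8601, 10722 and 5241, and an IDR summit lay 601 bp from it. Cdc7, Gcn5, Ada2b, Ada3 and Sgf29 had an IDR summit and no weak promoter region. Of the 29 genes for subunits of the acetyltransferase complexes SAGA, ATAC and CHAT, 11 (37.9%) had a weak promoter region alone and 6 (20.7%) an IDR summit. The strongest of the 11 were at not, a histone H2B deubiquitinase subunit, with signal 69.1, Taf5 with 68.7 and Saf6 with 65.2. Those at Taf5 and Saf6 were not found in replicate 1. The summit lay nearer to the start of bora than to that of not, at −121 against −442 bp, and nearer to that of Pex6 than to that of Taf5, as another gene's start was at 5 of the 11.

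A few genes gathered several weak regions at their starts. SNF4Agamma, the gamma subunit of AMP-activated kinase, and CG14478 had 7 each, mtd and fbl 6 each, and CG34417 and Svil 5 each. The regions of SNF4Agamma had signals from 43.2 to 85.6, and 3 of them overlapped the same replicate 1 region, ranked 8454. At fbl, a pantothenate kinase, the signals ran from 42.0 to 69.2. Such regions share replicate regions and are not independent.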

How the data were processed

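Region lists in narrowPeak format, as the authors deposited them, gave the signal score, the −log10 q and the summit offset in bp for each region. Per the deposited file listings, replicate lists and a pooled list made with a control alignment fed the IDR procedure. The aligner, the caller, its settings and the IDR cutoff were not given in the sources used here. Only the dm6 lists were used. Starts came from Ensembl release 115 (BDGP 6.54), and sequence from the RefSeq Release 6 genome. Overlap meant 1 bp or more. Windows of 100 bp to each side of summits gave GC content and motifs. Python 3.11.15, numpy 2.4.6, pandas 2.3.3 and scipy 1.17.1 were used, and functions were tested on simulated data. Members and gene lists were chosen with earlier results of these data known, and symbols in the 25 lists were corrected after the files were seen. Named genes were the 12 strongest members found in all 3 replicates, and members overlapping the highest regions of each replicate. Up to 3 genes of each list with the strongest member and no IDR summit were also named. The rest were chif and its partners, members nearest the threshold, and genes with most members. Alternatives were other promoter windows, 1 start per gene, distance from IDR summits, a −log10 q minimum, stricter overlap, other windows, replicate ranks and leaving out each replicate. Only the comparisons with replicate values were tested. Not every gene that this rule selects is described.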

Additional observations from a re-analysis of the deposited data

How the results depend on the processing

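A promoter window of 1000 bp gave 7242 weak promoter regions, and a −log10 q of at least 1 left 817 regions and 949 genes with no IDR summit. With that minimum the recurrence difference against weak regions away from promoters turned to −1.47 percentage points and the DRE difference against promoter IDR peaks to 1.78; the cause was not tested. Leaving out each replicate in turn gave recurrence differences of 2.24 to 15.7, upstream differences of −31.1 to −30.06, position differences of 81 to 88 bp, GC differences of 6.24 to 7.36 and DRE differences of −2.05 to −1.27. Over every alternative tried, the upstream difference ran from −32.7 to −16.0, the position difference from 49 to 126 bp and the GC difference from 4.24 to 8.48, each keeping its direction. Without counts the depth of the lists is unknown, and a region missing from a replicate list of 30000 may lie just under its end. Replicates come from 1 strain, without an untagged library analysed here.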
